A study of Sus scrofa with 207 samples.

Results

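The mitochondrial ribosomal proteins build the ribosome inside the mitochondrion. They were taken as every gene whose single symbol in the array annotation begins with MRPL (large subunit) or MRPS (small subunit), and the probe set with the highest mean over the 207 arrays stood for each gene. The rule found 58 genes, 36 named for the large and 22 for the small subunit, of 6765 genes measured by a single-symbol probe set. It used no trait and no difference between animals, but it did use the mean level to choose among the 77 probe sets of these genes.

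The samples are muscle from 207 commercial crossbred pigs of the cross Pix(DLxDE), collected when they were slaughtered at a mean weight of 110 kg, with 1 Affymetrix Porcine Genome Array per animal and no treated or control animals. Each animal carries 2 labels. Drip loss is the share of its weight that suspended longissimus dorsi muscle sheds as liquid during cold storage, and its mean was 5.37 ± 2.22% (SD, n = 207; lowest 1.45%, highest 10.82%). The fat area over the same muscle had a mean of 15.0 ± 3.15 cm2 (SD, n = 207 without the 8 animals that have no such label). Sex, age, sire, slaughter day and array batch are not given in the labels used here.

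The mitochondrial ribosome translates the few messengers encoded by mitochondrial DNA, which specify core subunits of the respiratory chain complexes and of ATP synthase. All its proteins are encoded in the nucleus, made in the cytosol and imported, and they join ribosomal RNAs that the organelle transcribes itself. Skeletal muscle fibres differ in how much of this machinery they hold, since oxidative fibres are richer in mitochondria than glycolytic ones. Symbols up to MRPL36 and MRPS21 largely follow the numbering of bacterial ribosomal proteins, whereas higher numbers were mostly given to proteins first described in mitochondria. A symbol does not always give the place in the particle: MRPS30 lies in the large subunit in mammalian structures, and MRPS36 is now known as a part of the 2-oxoglutarate dehydrogenase complex. The counts by subunit below follow the symbols.

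The RefSeq gene table of assembly Sscrofa11.1 lists 77 pig symbols beginning with MRPL or MRPS, and 19 of them had no single-symbol probe set. These were MRPL12, MRPL20, MRPL22, MRPL23, MRPL27, MRPL34, MRPL41, MRPL42, MRPL47, MRPL49, MRPL55, MRPL57, MRPS6, MRPS16, MRPS18A, MRPS18B, MRPS18C, MRPS31 and MRPS33. For MRPL55 and MRPL22 there were 6 probe sets whose annotation held several symbol entries, and they were left out. Of the 58 genes, 44 were read by 1 probe set, 9 by 2 and 5 by 3.

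Across the series the median log2 value of an array was 5.96 to 6.18, and 6 skeletal muscle markers were bright, with means of 13.58 to 14.11. Of the arrays, 24 stood apart by a low median correlation with the others, down to 0.944 against a typical 0.978, and they are called the low-correlation arrays. Mean drip loss was 4.20 ± 1.55% in the 24 animals of these arrays, against 5.53 ± 2.25% in all other animals (SD). Another 13 arrays lacked the poly-A spike-in signal, and none of these was a low-correlation array. The numbers in the sample titles form a higher series of 33 animals and a lower series of all the others, and were cut into 10 blocks of 100 numbers; the labels do not say what the numbers stand for.

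The messengers of all 58 genes had values above the floor of the deposited data, which is 4.00 on the log2 scale, in every animal. Of all 6765 genes, 7.78% had a value at the floor. Every mean of the 58 genes lay above 6.10, the median over all tested probe sets. Those probe sets include dimmer ones and ones without a symbol. Over the 6765 genes, each also read by its brightest probe set, the median of the means was 7.21, and MRPS7, MRPS30 and MRPL50 lay below it. The highest means were those of MRPL51 (11.08 ± 0.25, SD, n = 207), MRPS2 (10.94 ± 0.19), MRPL17 (10.89 ± 0.21), MRPL53 (10.80 ± 0.24) and MRPS26 (10.71 ± 0.24). The lowest were those of MRPS7 (6.82 ± 0.26), MRPS30 (6.91 ± 0.25), MRPL50 (6.98 ± 0.24), MRPL54 (7.41 ± 0.24) and MRPS36 (7.41 ± 0.37). Probe sets differ in how brightly they hybridise, so this order is not an order of messenger amounts.

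**Figure D1:**
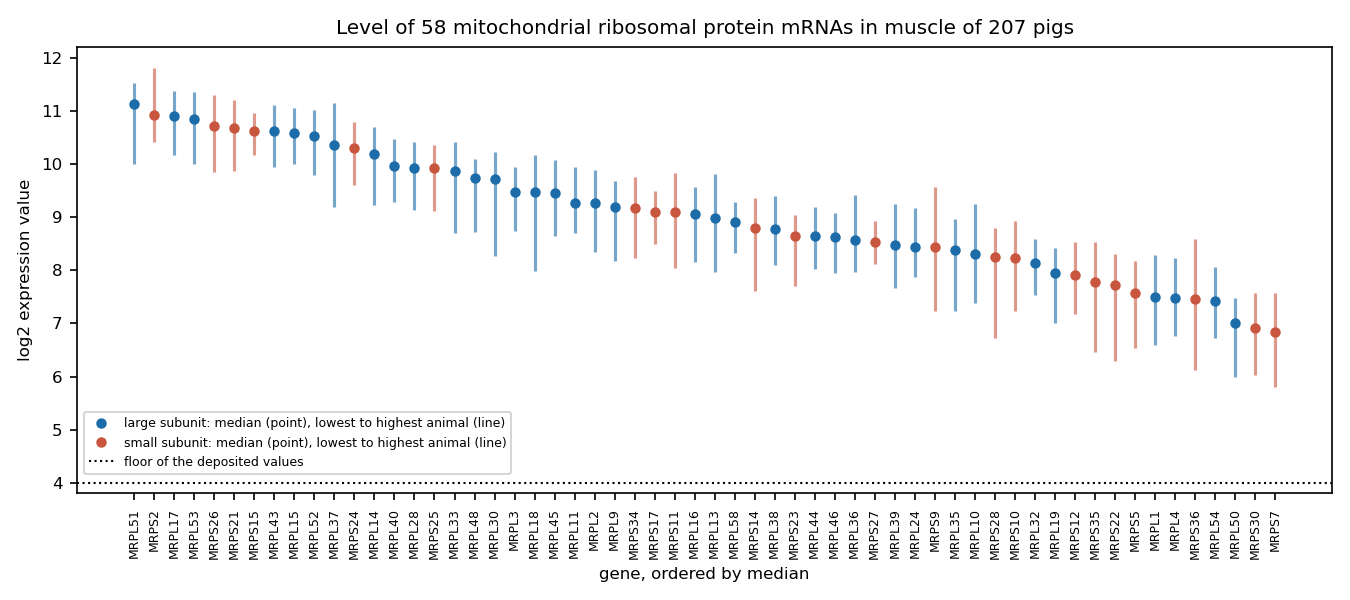
Log2 expression value of each of the 58 genes over 207 animals, ordered by median: points are medians, lines run from the lowest to the highest animal, blue marks the large and red the small subunit, and the dotted line is the floor at 4. All lines stay above the floor, and the medians fall from 11.13 for MRPL51 to 6.83 for MRPS7.

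The spread between animals was small. The SD over the 207 animals had a median of 0.24 over the 58 genes, against 0.25 over all 6765 genes. MRPS9, a counterpart of a bacterial small subunit protein, varied most, with values of 7.24, 8.43 and 9.56 in the lowest, median and highest animal (SD 0.40). MRPS36 (SD 0.37), MRPS28 (SD 0.37), MRPL30 (SD 0.36) and MRPL13 (SD 0.33) followed. MRPS15 varied least, from 10.16 through a median of 10.62 to 10.95 (SD 0.14), and MRPS27, an RNA-binding protein of the pentatricopeptide repeat family, and MRPL43 each had an SD of 0.16. The mean over the 58 genes within an animal ran from 8.53 through a median of 9.05 to 9.29.

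Messengers of the mitochondrial ribosome varied together from animal to animal. Over the 1653 pairs of the 58 genes the median Pearson's r was 0.325, 87.8% of pairs were positive and 22.6% exceeded 0.5. Over all 22879230 pairs of the 6765 genes the median was 0.0059, 51.5% were positive and 1.43% exceeded 0.5. The median was 0.334 within the large subunit, 0.319 within the small subunit and 0.323 between them. Among lists described below, cell markers aside, the median was higher for translation factors (0.357), complex I (0.443) and ATP synthase (0.532). Cytosolic ribosomal proteins (0.613) and slow fibre genes (0.732) were also higher. It was lower for genes under other symbols (0.179), assembly factors (0.157) and fast fibre genes. Mitochondrial DNA and RNA handling (0.141) and tRNA charging (0.0105) were also lower. Co-variation at this level was therefore not particular to the 58 genes. All these points share arrays, and no test was made of the medians. The first principal component of the 58 genes held 36.4% of their variance, and 57 of the 58 loaded on it with the same sign. Among all genes the first component held 12.0%.

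The closest pair was MRPL30, from the large subunit, and MRPS28, from the small subunit, with r = 0.885 and Spearman's rho = 0.735 over 207 animals. Both had a permutation p of 1e-05, the smallest that 100000 permutations can give, or 1.84e-05 and 2.08e-05 after Benjamini-Hochberg adjustment over the 1653 pairs. Without the 2 animals farthest from the median of MRPL30 the r was 0.871, within blocks 0.878, in the lower number series 0.866 and in the higher 0.936. Leaving out the 24 low-correlation arrays gave r = 0.806.

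MRPL18, whose human protein is known for its part in importing the 5S ribosomal RNA into mitochondria, stood in the next closest pairs, with MRPS11 (r = 0.879, rho = 0.80) and MRPS23 (r = 0.867, rho = 0.798). MRPL51 and MRPS28 reached r = 0.866 and rho = 0.766, and MRPS11 and MRPS23 reached r = 0.856 and rho = 0.791. Each of these 4 correlations had the same permutation p as the closest pair and stayed between 0.763 and 0.789 without the low-correlation arrays. Within blocks they lay between 0.837 and 0.882, and without the 2 farthest animals between 0.840 and 0.864.

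MRPS2, another counterpart of a bacterial small subunit protein, ran the other way. It held the 3 lowest pairs, with MRPS35 (r = -0.593, rho = -0.517), MRPL30 (r = -0.592, rho = -0.486) and MRPS30 (r = -0.536, rho = -0.419), each with a permutation p of 1e-05. These lay at -0.433, -0.428 and -0.355 without the low-correlation arrays, and at 0.040, -0.13 and -0.059 after 5 principal components of all probe sets were removed. Without the 2 animals farthest from the median of the first gene they lay between -0.563 and -0.509. Of the 57 pairs of MRPS2, 31 were negative, and its mean r to the other genes was -0.11.

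The genes with the highest mean r to the others were MRPL51 (0.488), MRPS11 (0.482), MRPL18 (0.475), MRPS23 (0.475) and MRPL53 (0.463). MRPL44, an RNase III-like protein, had a mean r of 0.048, MRPL1 of 0.065, MRPL37 of 0.068 and MRPS36 of 0.076. MRPS11 and MRPL46, neighbouring genes in RefSeq and a pair chosen after the values were seen, had r = 0.234 and rho = 0.225 (permutation p = 0.00077 and 0.00125, adjusted p = 0.00117 and 0.00202). Without the low-correlation arrays their r was 0.124, and without the 2 farthest animals 0.217. The r of this pair lay below 0.325, the median over all 1653 pairs. At an adjusted permutation p under 0.05, 1205 of the 1653 pairs were positive and 73 negative, so passing does not set a pair apart.

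**Figure D2:**
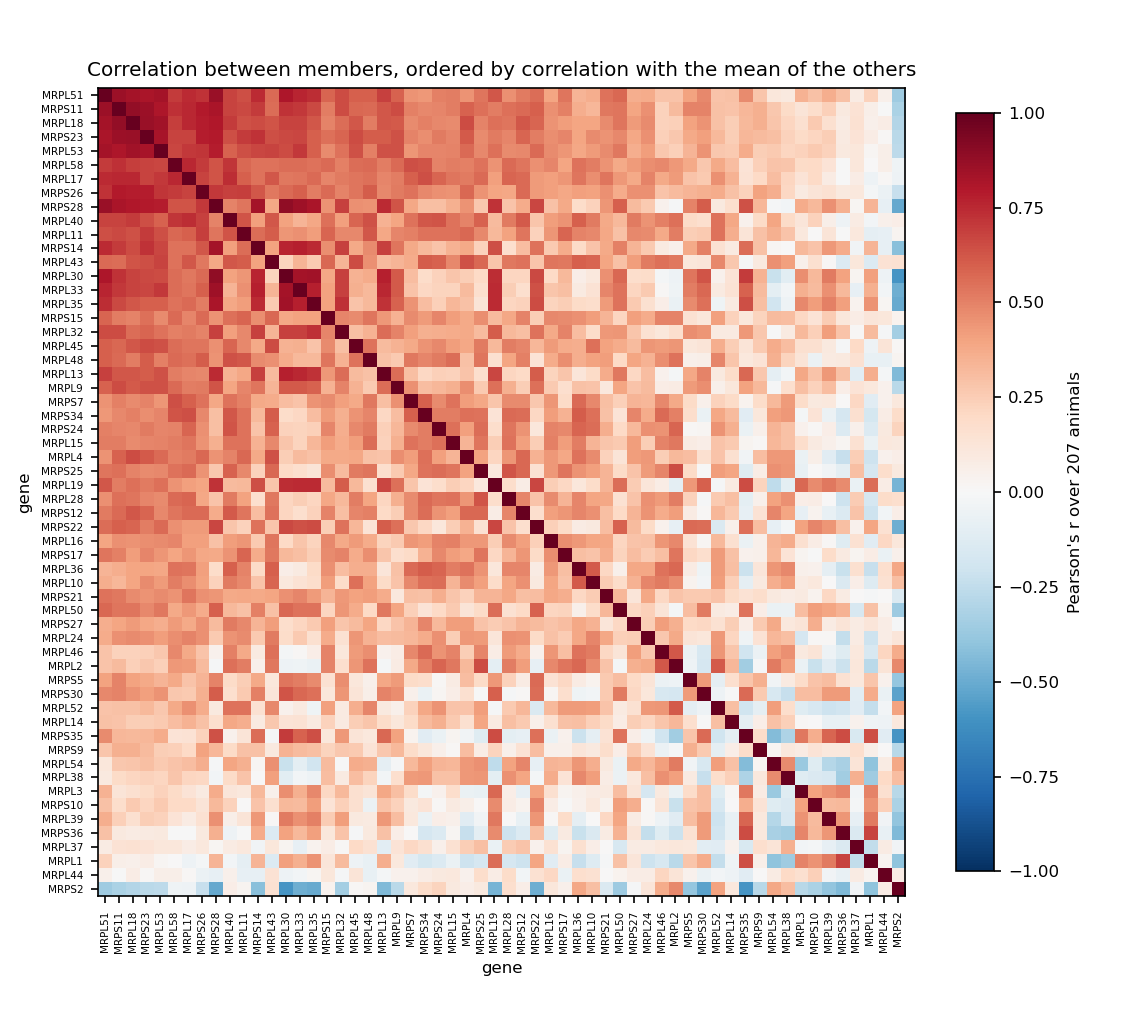
Pearson's r between every pair of the 58 genes over 207 animals, from blue (-1) through white (0) to red (1), with genes ordered by their correlation with the mean of the others. Most cells are red, 87.8% of pairs being positive, and the last row and column, MRPS2, are blue for 31 of 57 pairs.

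Co-variation was recomputed under other choices of arrays and scale. The median r was 0.325 after values were centred within blocks, 0.328 in the lower number series alone and 0.357 in the higher. It was 0.261 without the low-correlation arrays and 0.216 after removal of 5 principal components of all probe sets, when the median over all gene pairs was 0.0052.

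The low-correlation arrays had lower values of these genes. In them 57 of the 58 means were lower than in the other arrays, with a median difference of -0.21 on the log2 scale, against -0.028 over all genes. MRPS28 had values of 6.73, 7.52 and 8.75 in the lowest, median and highest low-correlation array, against 7.35, 8.28 and 8.80 in the other arrays. MRPL30 had 8.27, 9.02 and 10.13 in the low-correlation arrays, against 8.72, 9.74 and 10.22 in the others. MRPS2 was the exception, with 10.42, 11.19 and 11.81 in the low-correlation arrays, against 10.41, 10.90 and 11.35 in the others. The ranges of both sets of arrays overlapped for all 58 genes. These arrays were set apart by their values, so no test was made, and their part in the results on drip loss is given as values with and without them. In the 13 arrays lacking the spike-in signal, 52 of the 58 means were higher than in the other arrays, with a median difference of 0.093 on the log2 scale, against 0.020 over all genes.

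For drip loss the question was whether the level of these messengers in an animal's muscle goes with the water its meat loses. Of the 58 genes, 11 rose with drip loss and 0 fell (limma over all 23935 probe sets, Benjamini-Hochberg adjusted p under 0.05). Over the 6765 genes 3.96% rose and 2.11% fell. The 11 were MRPS11, MRPL51, MRPL53, MRPS23, MRPL30, MRPL11, MRPL43, MRPS28, MRPS5, MRPS15 and MRPL33. Slopes were small and mostly positive: 52 of 58 were above 0, and the median slope was 0.038 log2 units for each SD of drip loss, against 0.0080 over all genes. At an unadjusted p under 0.05, 33 of the 58 were higher, against 15.8% of all genes. An SD of drip loss is 2.22 percentage points.

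MRPS11, a counterpart of a bacterial small subunit protein, had the smallest p. Its log2 values were 8.04 in the lowest, 9.09 in the median and 9.83 in the highest animal. The animals were cut by drip loss into 4 classes of 51, 52, 52 and 52, and from the lowest to the highest class the medians were 9.07, 9.03, 9.11 and 9.16. The slope was 0.078 ± 0.019 (SE, n = 207, limma adjusted p = 0.00847), which is 5.58% per SD of drip loss. The slope was positive in 9 of 10 blocks.

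MRPL51, a large subunit protein with no bacterial counterpart, had values of 9.99, 11.13 and 11.52 in the lowest, median and highest animal. Its medians by drip loss class, low to high, were 11.06, 11.08, 11.16 and 11.20, and the slope was 0.067 ± 0.017 (SE, n = 207, limma adjusted p = 0.00952). Each class had a higher median than the one below it. MRPL53, also specific to mitochondria, had values of 10.00, 10.84 and 11.35 and a slope of 0.058 ± 0.016 (limma adjusted p = 0.0230).

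MRPL30 had the steepest slope of the 58, 0.082 ± 0.024 (limma adjusted p = 0.0288), with values of 8.27, 9.72 and 10.22 in the lowest, median and highest animal. Its medians by drip loss class were 9.62, 9.70, 9.71 and 9.84. MRPS28, its closest partner among the pairs, had values of 6.73, 8.25 and 8.80, medians of 8.19, 8.22, 8.27 and 8.37 by class, and a slope of 0.078 ± 0.025 (limma adjusted p = 0.0452). Both genes therefore rose by over 5% per SD of drip loss, 5.82% and 5.54%, with the largest step at the highest class.

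Further genes that rose had flatter slopes. MRPS23 had a slope of 0.051 ± 0.015, MRPL11, whose bacterial counterpart lies at the base of the ribosomal stalk, of 0.044 ± 0.013, and MRPL43 of 0.038 ± 0.011 (limma adjusted p of 0.0282, 0.0291 and 0.0316). MRPS5 had 0.050 ± 0.016 and MRPS15, the gene with the smallest spread, 0.031 ± 0.010 (limma adjusted p of 0.0461 and 0.0471). MRPL33 passed by the least margin, with values of 8.70, 9.87 and 10.41 and a slope of 0.063 ± 0.020 (limma adjusted p = 0.04995), and the nearest gene that missed the threshold was MRPS17, with 0.036 ± 0.012 (limma adjusted p = 0.0519). For all 11 genes the median was higher in the highest than in the lowest drip loss class, and for all 58 genes the ranges of these classes overlapped.

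**Figure D3:**
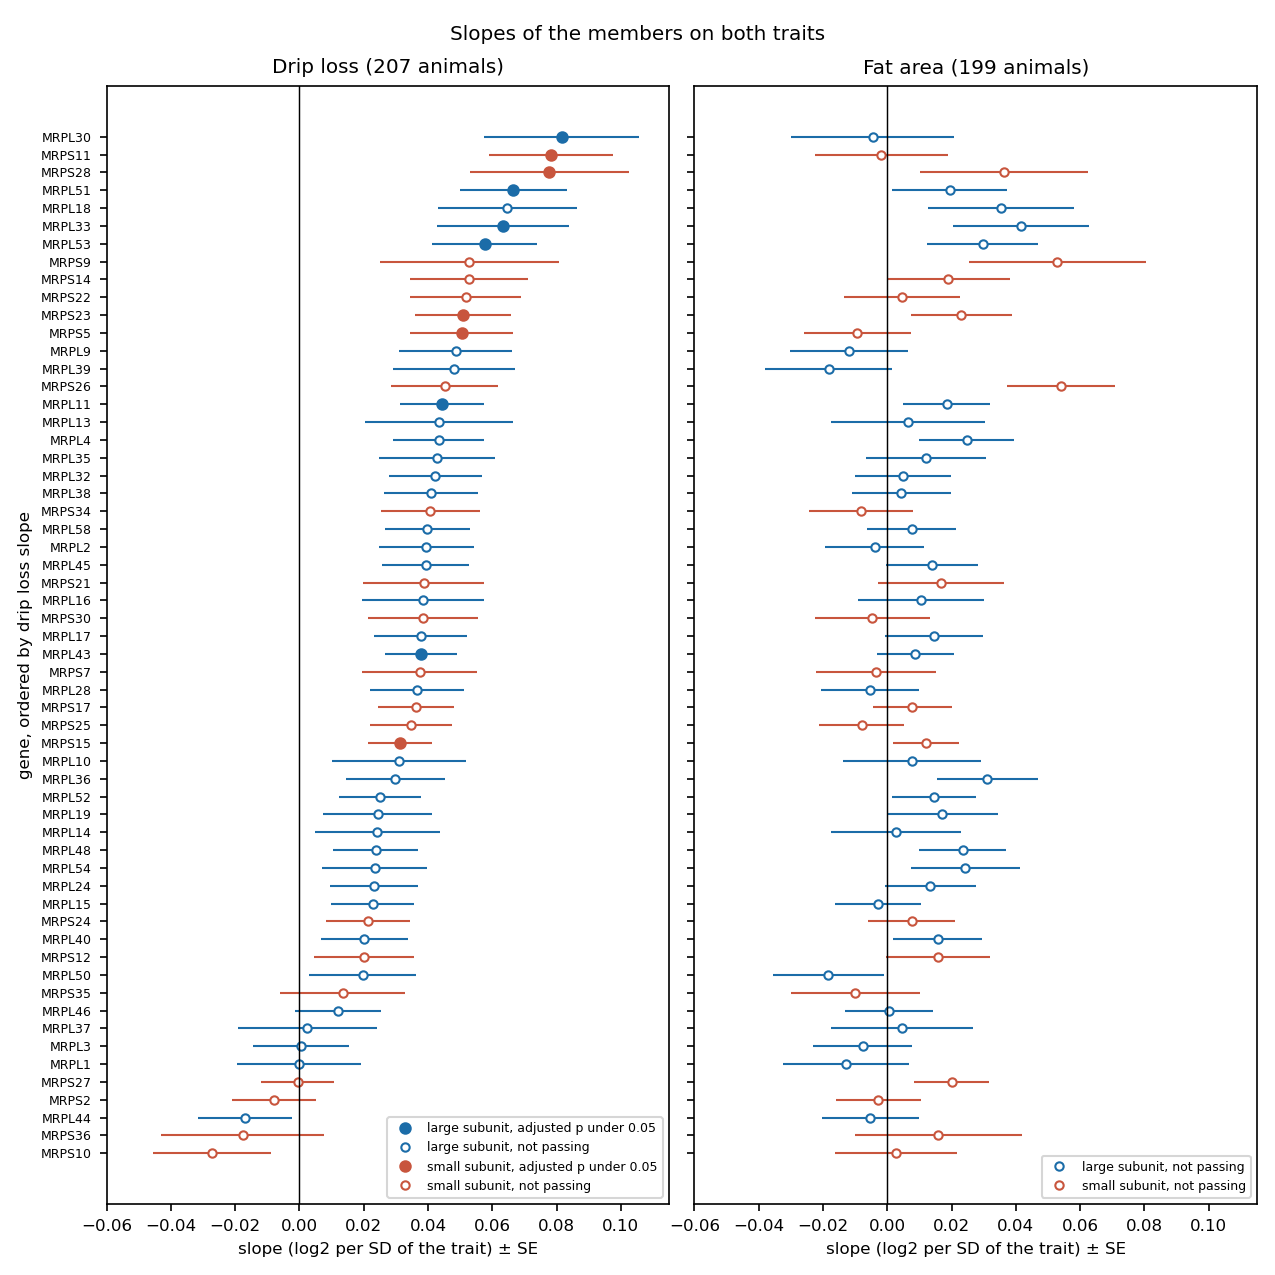
Slope of each of the 58 genes on drip loss (left, 207 animals) and fat area (right, the animals with that label), in log2 units per SD of the trait with SE bars, ordered by the drip loss slope; blue is the large and red the small subunit, and filled points have a limma adjusted p under 0.05. Most drip loss slopes lie right of 0, 11 are filled, and on fat area none is.

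Genes of both subunits rose. Of the large subunit genes 6 of 36 rose, with a median slope of 0.038, and of the small subunit genes 5 of 22 rose, with a median slope of 0.038. By symbol number, a grouping made after the values were seen, 6 of the 32 genes with bacterial numbering rose and 5 of the 26 with higher numbers. Among genes named whatever their values, MRPL45, a membrane-facing protein near the exit of the nascent chain, had a slope of 0.039 ± 0.014 (limma adjusted p = 0.0719). MRPS12, which lies near the decoding site, had 0.020 ± 0.016 (limma adjusted p = 0.508) and MRPS30 0.038 ± 0.017 (limma adjusted p = 0.185).

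Slopes below 0 were found for 6 genes, and none passed the test. MRPS10 had -0.027 ± 0.018, MRPS36 -0.018 ± 0.025, MRPL44 -0.017 ± 0.015 and MRPS2 -0.0078 ± 0.013 (limma adjusted p of 0.431, 0.760, 0.565 and 0.80). MRPS27 and MRPL1 were close to 0, at -0.00052 ± 0.011 and -8.2e-05 ± 0.019 (limma adjusted p of 0.988 and 0.999). Across the 58 genes, which are not independent, the drip loss slope correlated with the gene's r to the mean of the other members (r = 0.703), and 10 of the 11 genes that rose were in the upper part of that order, above its median. It correlated with the difference between low-correlation and other arrays at r = -0.613, so genes with lower values in the low-correlation arrays tended to have steeper slopes. These slopes include the low-correlation arrays, whose animals had the lower mean drip loss (4.20% against 5.53%). A relation of this sign is therefore partly built in.

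The calls depended on the low-correlation arrays and on the title numbers. Without the 24 low-correlation arrays 0 of 58 genes passed, and 0.636% of all genes rose. At an unadjusted p under 0.05, 21 of the 58 were higher, against 9.45% of all genes, and 1 was lower, MRPS10 (-0.044 ± 0.016, unadjusted p = 0.00655, limma adjusted p = 0.163). The median slope of the 58 genes was then 0.022, and the 11 genes had slopes of 0.020 to 0.047, all positive, with limma adjusted p of 0.0900 to 0.386. With the blocks as a covariate 0 passed, while 0.384% of all genes rose, and 23 were higher at an unadjusted p under 0.05, against 10.1% of all genes. Slopes of the 11 genes were 0.026 to 0.064, with limma adjusted p of 0.143 to 0.369. With both together the median slope was 0.013 and 0 passed, against 0.148% of all genes that rose. Then 3 genes were higher and 1, MRPS10, lower at an unadjusted p under 0.05, against 6.93% and 5.34% of all genes.

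Within the number series the 11 slopes were 0.031 to 0.064 in the lower series and 0.049 to 0.161 in the 33 animals of the higher series, with 0 calls in either, against 0.71% and 0% of all genes that rose. At an unadjusted p under 0.05, 24 and 23 of the 58 were higher, against 11.4% and 7.44% of all genes. The median slope over the 58 genes was positive in 8 of 10 blocks of 10 to 35 animals, and each of the 11 genes had a positive slope in 7 to 9 of them. With 5 principal components of all probe sets as covariates the median slope was 0.0018, 0 of 58 passed, against 0.015% of all genes that rose, and 26 slopes were below 0. Then 3 genes were higher and 1, MRPS10, lower at an unadjusted p under 0.05, against 4.60% and 3.65% of all genes. Components 2 and 3 correlated with the mean of the 58 genes at r of -0.60 and 0.38. The fit with 5 components therefore also takes out variation that the 58 genes share. Whether the 5 components, the blocks and the low-correlation arrays reflect the tissue or its handling was not tested.

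**Figure D4:**
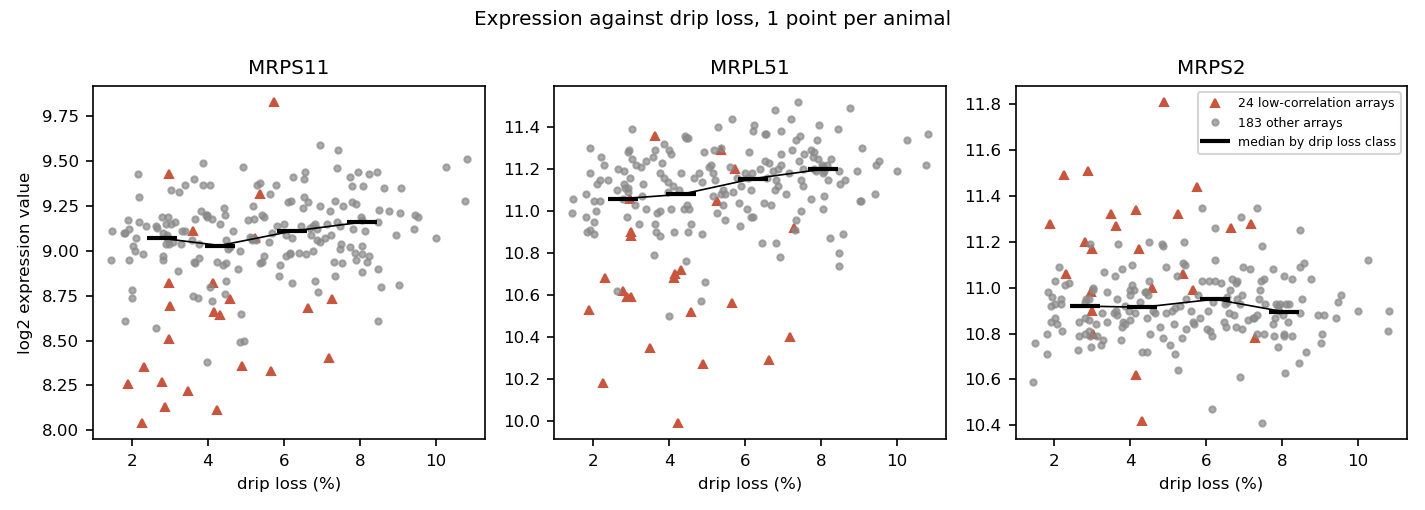
Log2 expression value against drip loss in percent for MRPS11, MRPL51 and MRPS2, 1 point per animal; red triangles are the 24 low-correlation arrays, grey points all others, and black bars the medians by drip loss class. MRPS11 and MRPL51 have many red triangles at the bottom left and their highest medians in the class of highest drip loss, whereas for MRPS2 the triangles lie mostly above the other points.

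**Figure D5:**
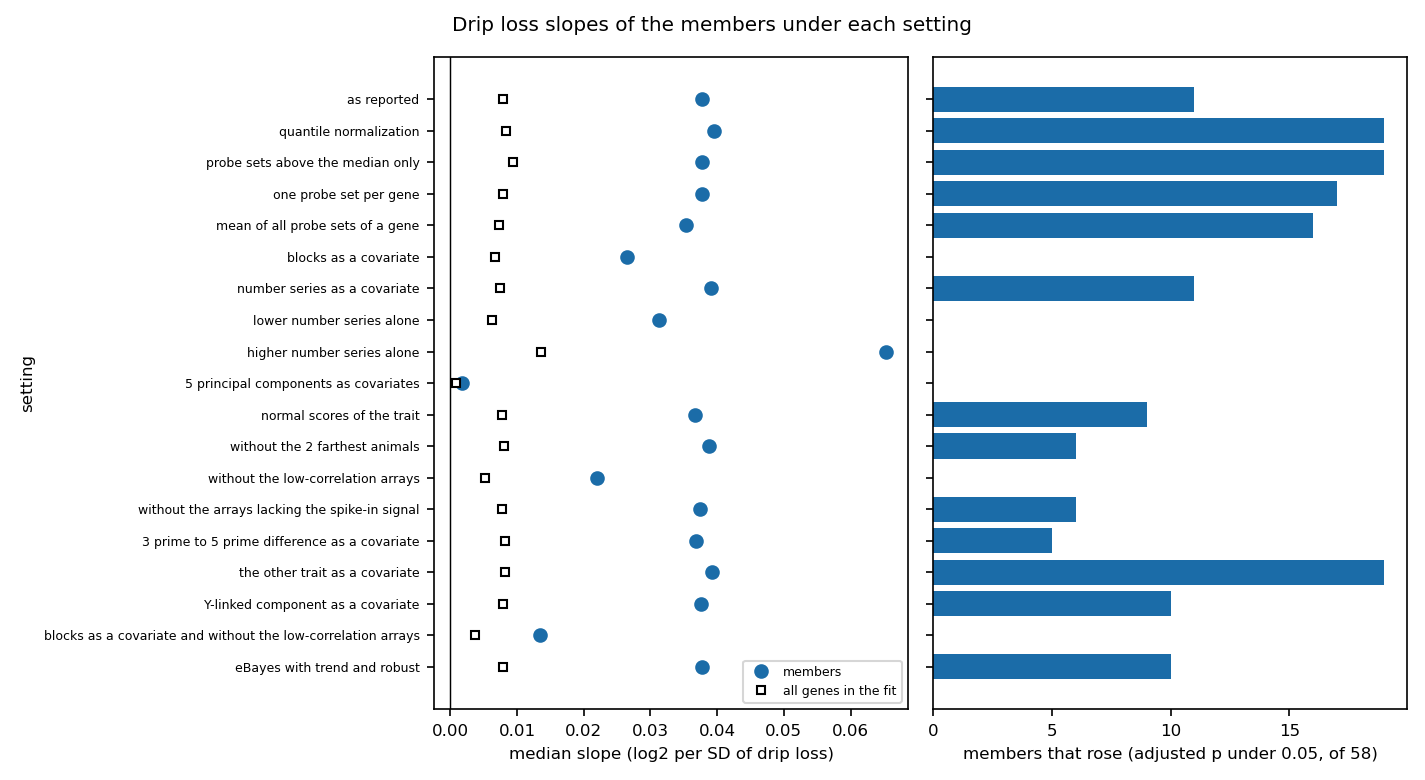
Median drip loss slope in log2 units per SD (left; filled points are the 58 genes, open squares all genes in the fit) and number of the 58 genes that rose (right) under each setting. Every median of the 58 genes lies above 0, from 0.0018 to 0.065, while the number that rose runs from 0 to 19.

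Other probe sets of the same genes gave a partial check of the signal. Of the 19 dimmer probe sets 2 rose with drip loss and 0 fell, against 1.94% of all tested probe sets that rose. They correlated with the brightest one of their gene at a median r of 0.52, with 0.61 for the 11 with a mean above 6.10 and 0.26 for the 8 below it. MRPL2's dimmer probe set rose with drip loss (0.048 ± 0.013, limma adjusted p = 0.0155), whereas its brightest had 0.039 ± 0.015 (limma adjusted p = 0.101). For MRPL43 both probe sets rose, the dimmer one with 0.053 ± 0.016 (limma adjusted p = 0.0359). The dimmer probe set of MRPL33 had r = -0.099 with the brighter and a slope of -0.019 ± 0.027, and the dimmest of MRPL35, MRPL46 and MRPL52 had r of -0.046, -0.075 and -0.012. Slopes of opposite sign within a gene were found for MRPL3, MRPL15, MRPL33, MRPL35 and MRPS2.

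With fat area no relation passed the test. Of the 58 genes 0 were called (limma, adjusted p under 0.05), and 1 had an unadjusted p under 0.05. Over all 6765 genes 0.148% were called and 7.94% had an unadjusted p under 0.05. MRPS26 was that 1 gene, with values of 9.85, 10.71 and 11.30 in the lowest, median and highest animal and a slope of 0.054 ± 0.017 per SD of fat area (limma adjusted p = 0.304). MRPL36 (0.031 ± 0.016), MRPL33 (0.042 ± 0.021), MRPS9 (0.053 ± 0.028) and MRPL48 (0.023 ± 0.013) came next, with limma adjusted p of 0.705 to 0.768. The median slope was 0.0078, with 40 of 58 above 0, against -0.0015 over all genes, with 46.8% above 0. It was 0.00098, with 30 above 0, without the low-correlation arrays, and 0.00038 with a Y-linked component as a covariate. The slopes on drip loss and fat area, fitted together in the animals with both labels, differed for 0 of 58 genes at an adjusted p under 0.05 and for 8 at an unadjusted p under 0.05, all higher on drip loss, against 0.591% and 9.86% of all genes. MRPS11 had the smallest p, with a difference of 0.076 ± 0.027 (drip loss minus fat area, limma adjusted p = 0.176). The median difference was 0.024, with 8 genes at an unadjusted p under 0.05, and with the blocks as a covariate it was 0.0096, with 2 genes.

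The genes whose pattern was most like the mean of the 58, each scaled to SD 1, were found among the 6707 other genes by Pearson's r over 207 animals. CHCHD1 came first (r = 0.842), and it is itself a subunit of the mitochondrial ribosome under another symbol. TIMM13, a carrier of proteins across the intermembrane space (r = 0.841), BOLA1, a mitochondrial protein of iron-sulphur handling (0.839), and C3H16orf91 (0.836) followed. NHP2, NAA38, SNAPIN, LOC100157391, ATPIF1, which inhibits ATP synthase, and SWI5 completed the 10, at 0.828 to 0.817. Without the low-correlation arrays the r of these 10 was 0.715 to 0.793. The median over the 6707 genes was 0.044.

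Partners of the mitochondrial ribosome were measured beside it. Over all 6765 genes 3.96% rose with drip loss and 2.11% fell, as above. Of 5 genes under other symbols, the ribosomal subunits DAP3, PTCD3, CHCHD1 and GADD45GIP1 and the membrane insertase OXA1L, 1 rose, CHCHD1 (0.038 ± 0.012, limma adjusted p = 0.0393), and 0 fell. Of 8 translation factors 0 fell and 2 rose: TSFM, the exchange factor of mitochondrial elongation, with values of 7.95, 9.12 and 9.62 in the lowest, median and highest animal (0.062 ± 0.018, limma adjusted p = 0.0275), and MRRF, the recycling factor (0.059 ± 0.015, limma adjusted p = 0.0127). Of 11 genes that charge mitochondrial tRNAs, synthetases and the amidotransferase subunits QRSL1, GATB and GATC, 0 passed. At an unadjusted p under 0.05, QRSL1 (0.055 ± 0.022) and GATC (0.038 ± 0.015) were higher and the synthetase gene WARS2 (-0.027 ± 0.011) lower. Over all genes 15.8% were higher and 8.04% lower at that level. Of 17 assembly factors 0 rose and 1 fell, the pseudouridine synthase gene TRUB2 (-0.061 ± 0.015, limma adjusted p = 0.00936). Of 9 genes of mitochondrial DNA and RNA handling 1 rose, SSBP1, which binds single-stranded mitochondrial DNA (0.043 ± 0.014, limma adjusted p = 0.0447). With the blocks as a covariate 0 genes of these lists passed, against 26 of all 6765 genes that rose and 30 that fell. TRUB2 then had -0.052 ± 0.016 (limma adjusted p = 0.0900). Without the low-correlation arrays 0 rose and TRUB2 fell (-0.059 ± 0.016, limma adjusted p = 0.0461), against 43 of all 6765 genes that rose and 45 that fell. CHCHD1, TSFM, MRRF and SSBP1 kept positive slopes in both fits, of 0.024 to 0.042.

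Subunits of the complexes that the mitochondrial ribosome helps to supply also rose. Of 36 genes named for complex I, some of them assembly factors, 14 rose and 0 fell, with NDUFA2 (0.065 ± 0.014, limma adjusted p = 0.00206) and NDUFB2 (0.078 ± 0.018, limma adjusted p = 0.00585) at the smallest p. Of 14 ATP synthase genes 3 rose, ATP5I, ATP5H and ATP5L, and 0 fell. Over all 6765 genes 3.96% rose and 2.11% fell. With blocks as a covariate 1 gene of each list rose, against 0.384% of all genes. Without the low-correlation arrays 2 of complex I and 1 of ATP synthase rose, against 0.636% of all genes. The mean of the 58 genes correlated with the mean of complex I at r = 0.804 (rho = 0.787) and with that of ATP synthase at r = 0.781 (rho = 0.699), given as a description. Genes of the 13 mitochondrially encoded proteins were looked for, and 0 had a single-symbol probe set.

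Proteins of the cytosolic ribosome, which translates the nuclear messengers, were measured as well. Of 57 cytosolic ribosomal protein genes 0 rose and 1 fell, RPL30, which was close to the floor at a mean of 4.69. Slopes were above 0 for 49 of the 57 and below 0 for 8, with a median of 0.017, against 0.0080 over all genes. Of the 57, 17 had an unadjusted p under 0.05, against 23.9% of all genes. Of these 17, 15 were higher, and over all genes 15.8% were higher at that level. With blocks as a covariate 0 rose and 1 fell, and the same counts were found without the low-correlation arrays. The mean of the 57 genes correlated with that of the 58 genes at r = 0.553 (rho = 0.467). The difference between the lists was not tested.

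Markers of fibre type and of other cells were set beside the 58 genes. Over all genes 3.96% rose with drip loss, 2.11% fell and 23.9% had an unadjusted p under 0.05. Slow fibre genes, 8 measured, had 0 calls on drip loss and 0 at an unadjusted p under 0.05, and their mean correlated with that of the 58 at r = 0.490 (rho = 0.387), or 0.289 without the low-correlation arrays. Fast fibre genes, 6 measured, had 0 calls and 1 at an unadjusted p under 0.05, with r = 0.094 (rho = 0.103). Adipocyte, blood, endothelial, macrophage, T cell and fibroblast markers had 0 calls in 24 genes and 4 at an unadjusted p under 0.05, and their means correlated with that of the 58 at r of 0.0035 to 0.083. S100B, the 1 measured marker of Schwann cells, had values of 5.87, 7.46 and 8.48 in the lowest, median and highest animal, r = 0.576 (rho = 0.439) with that mean, and a drip loss slope of 0.078 ± 0.030 (limma adjusted p = 0.112). Without the low-correlation arrays its r was 0.347 and its slope 0.022 ± 0.026 (limma adjusted p = 0.783), and its part in the results was not tested. In bulk muscle, fewer cells or fibres of a type and less RNA per cell cannot be told apart.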

How the data were processed

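Total RNA of 207 muscle samples, labelled as biotinylated cRNA, was hybridised to 1 Affymetrix Porcine Genome Array per animal. The authors deposited log2 values per probe set, made with GCOS 1.1.1 and PLIER per the submitters' processing notes; scaling between arrays is not given in the sources used here. A floor of 4.00 on the log2 scale equals 16 linear. The tests took in 23935 of 24123 probe sets, all but the 188 controls; symbols came from the array annotation, and 57 of 58 genes matched RefSeq by gene number with 0 symbols changed. The values were used as deposited; precision is limited by how many arrays there are. In limma 3.58.1 (R 4.3.3, lmFit, then eBayes) every probe set was regressed on the trait in SD units, two-sided. Benjamini-Hochberg adjustment ran over 23935 probe sets, with a threshold of 0.05. The fit was also run on simulated data in which probe sets varied independently, without array or block effects. That run cannot speak to the dependence of the calls on blocks and low-correlation arrays. Pair correlations used 100000 two-sided permutations. Low-correlation arrays were those with a median correlation more than 3 scaled MAD under the overall one. The animals form 1 group. The limma p-values set a slope against the spread left between animals, which were treated as independent. Sire, slaughter day and array batch, which the labels do not give, were not modelled. There were 18 alternatives to each trait fit. The genes, lists and tests were chosen with earlier results of these data known. Named were all genes that passed, or the 5 with the smallest p; the 5 highest and 5 lowest means; the 5 largest and 3 smallest SDs; the 5 highest and 3 lowest pairs; the 5 highest and 5 lowest mean r; probe sets that disagree; the 10 most alike other genes; and genes fixed by name. Of the fixed names MRPL12, MRPL41, MRPS18A, MRPS18B and MRPS18C were not measured by a single-symbol probe set. Of the complex I genes that passed, only NDUFA2 and NDUFB2 were named. Some genes were named outside these rules, among them PPARGC1A, TFAM, TUFM, QRSL1, GATC, WARS2 and S100B.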

Additional observations from a re-analysis of the deposited data

How the results depend on the processing

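The number of the 58 genes that rose with drip loss, 11 as reported with 3.96% of all genes rising, was 19 under quantile normalization, 19 with only probe sets above the median, 17 with 1 probe set per gene in the adjustment, 16 when a gene's probe sets were averaged and 19 with fat area as a covariate, while 4.67%, 7.21%, 4.98%, 5.16% and 4.55% of all genes rose. It was 6 without the 2 animals of most extreme drip loss (MRPS11, MRPL51, MRPL53, MRPL43, MRPS23 and MRPL30), the same 6 genes without the arrays lacking the spike-in signal, and 5 with the 3' to 5' control difference as a covariate (MRPL51, MRPS11, MRPL2, MRPS15 and MRPL11), with 3.13%, 3.21% and 2.31% of all genes rising. It was 0 with the blocks as a covariate, in the lower or the higher number series alone, with 5 principal components, without the low-correlation arrays, and with the blocks and without those arrays together. Between 9 and 11 rose under the remaining settings, with 3.37% to 3.87% of all genes rising. These settings were normal scores, the number series as a covariate, the Y-linked component as a covariate, and eBayes with trend and robust. The median slope was 0.065 in the higher series, 0.0018 with 5 principal components and 0.013 with blocks and without the low-correlation arrays. With 5 principal components the slopes of MRPL53 and MRPS23 turned to -0.0017 and -0.0062, and on fat area 1 gene, MRPS26, was called. In that fat area fit 0.296% of all genes rose, against 0.030% as reported. At an unadjusted p under 0.05 there were 13.7% of all genes, against 7.94% as reported. Probe sets above the median, 1 probe set per gene and averaged probe sets enter fewer tests into the adjustment. Averaging also changes the values: the slope of MRPL33 was 0.063 as reported and 0.022 when averaged. Why the counts differ was not tested for any setting. Co-variation kept its direction, with a median r from 0.216 to 0.357 over 10 alternatives, of which 3 (each number series alone, and blocks without the low-correlation arrays) were chosen after seeing the data, as were the refits of the list genes. The alternative with only genes above the median of all probe sets kept all 58 genes. It therefore could not differ from the reported 0.325. The floor limits only dimmer probe sets: the dimmest of MRPL46 had 49 animals there, and the probe sets that stand for the 58 genes had 0. No paired analysis was possible because the animals form a single group.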

Other observations

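PPARGC1A, a coactivator of mitochondrial genes, varied far more between animals than any of the 58 mitochondrial ribosomal protein genes, with values of 5.96, 8.02 and 10.97 in the lowest, median and highest animal (SD 1.29). Its drip loss slope was -0.27 ± 0.087 (n = 207, limma adjusted p = 0.0510), which missed the threshold, and its r with the mean of the 58 genes was -0.30, given as a description. TFAM, which packages mitochondrial DNA, had values of 6.24, 7.52 and 8.57, a slope of -0.010 ± 0.022 (limma adjusted p = 0.850) and r = 0.22. The mitochondrial elongation factor gene TUFM had values of 8.76, 9.35 and 10.03 and r = 0.16 with the mean of the 58 genes, while its exchange factor TSFM had r = 0.77.

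The second principal component of the 58 genes held 16.5% of their variance and correlated at r = 0.76 with the first component of all probe sets. On it 26 genes loaded in one direction and 32 in the other. The mean of the 58 genes correlated with an array's median correlation to the others at r = 0.53 (rho = 0.34), or 0.23 without the low-correlation arrays, and with the poly-A spike-in signal at r = -0.35 (rho = -0.38). With principal components 1 to 5 of all probe sets, the mean of the 58 genes had r of -0.24, -0.60, 0.38, 0.077 and -0.083. What these relations stand for was not tested.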
